A study of Mus musculus with 10 samples.

Results

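The plastin genes *Pls1*, *Pls3* and *Lcp1* and the class I myosin genes *Myo1c*, *Myo1d*, *Myo1e*, *Myo1f* and *Myo1g* were followed in RNA-seq of hematopoietic stem cells (HSCs) of 2 *Cited2* genotypes. These 8 genes were taken by symbol from the 26146 genes of the count table, and all 8 were among the 14165 genes with enough counts to be tested. They were selected on the comparison of genotypes described here, with *Pls1* and *Myo1d* known to differ, so their differences between genotypes are a description and give no independent support. HSCs were sorted as LSKCD48-CD150+ cells, LSK standing for Lin-Sca-1+c-Kit+, from 1 C57BL/6J mouse per library aged 8 to 12 weeks, and polyA RNA was sequenced in bulk. *Cited2*CTL mice, labelled wildtype, carried *Cited2* fl/fl without Cre (5 libraries, CTL 1 to CTL 5). *Cited2*CKO mice, labelled Cited2 KO, carried *Cited2* fl/fl and *Vav-iCre*, by which the gene, a transcriptional coregulator, is deleted across the hematopoietic system from early in development (5 libraries, CKO 1 to CKO 5). The study asked how loss of *Cited2* alters gene expression in HSCs, and every animal carried the floxed alleles, so these libraries hold no group with unmodified *Cited2* alleles and none with Cre alone.

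Plastins, also called fimbrins, carry paired actin-binding domains after calcium-binding EF hands and pack actin filaments into tight parallel bundles. Plastin 1, encoded by *Pls1*, is the form of intestinal and renal brush borders and of inner ear hair cells, plastin 3 (*Pls3*) is common in non-hematopoietic tissues, and plastin 2, or L-plastin (*Lcp1*), is the leukocyte form found in podosomes and immune synapses. Class I myosins are single-headed actin motors with a lipid-binding tail that link membranes to the cortical actin network. *Myo1c*, *Myo1d* and *Myo1g* encode short-tailed forms, and *Myo1e* and *Myo1f* encode long-tailed forms with an SH3 domain.

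The promoters of the plastins are shown because the 3 paralogs had very different RNA levels in the same cells. RefSeq windows on GRCm38.p6, from 250 bases before to 50 bases after a transcription start, were found for 7 of the 8 genes (12 windows), all but *Myo1d*. The windows nearest to the annotated gene starts were chr9:95845230-95845529 on the minus strand for *Pls1*, chrX:75875133-75875432 on the minus strand for *Pls3* and chr14:75130873-75131172 on the plus strand for *Lcp1*. They are written 5′ to 3′ on the strand of the gene, and capitals mark matches, on either strand, to any of 8 searched motifs.
Pls1: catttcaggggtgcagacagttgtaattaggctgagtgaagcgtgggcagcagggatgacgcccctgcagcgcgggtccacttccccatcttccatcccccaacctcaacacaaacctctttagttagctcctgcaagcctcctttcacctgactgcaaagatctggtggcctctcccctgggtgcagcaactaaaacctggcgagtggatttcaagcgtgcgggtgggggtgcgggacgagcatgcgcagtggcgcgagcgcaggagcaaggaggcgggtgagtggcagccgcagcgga
Pls3: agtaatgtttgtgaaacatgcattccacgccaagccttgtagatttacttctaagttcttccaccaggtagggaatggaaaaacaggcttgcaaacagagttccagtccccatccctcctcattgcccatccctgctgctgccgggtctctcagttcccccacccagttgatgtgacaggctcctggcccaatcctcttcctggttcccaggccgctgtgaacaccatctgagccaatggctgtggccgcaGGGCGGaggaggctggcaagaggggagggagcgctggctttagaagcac
Lcp1: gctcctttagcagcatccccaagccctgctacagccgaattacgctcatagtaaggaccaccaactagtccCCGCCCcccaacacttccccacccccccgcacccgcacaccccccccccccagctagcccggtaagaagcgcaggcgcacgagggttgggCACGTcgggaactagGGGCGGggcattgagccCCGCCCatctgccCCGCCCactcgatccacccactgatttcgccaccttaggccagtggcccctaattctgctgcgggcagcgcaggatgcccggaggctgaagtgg
The motifs, each followed by the share of all 32851 windows that held it, were TGTGGT for RUNX (16.8%), CACGTG for the MYC E-box (7.15%), TTCCCGC (4.60%) and TTGGCGC (2.45%) for E2F, GAGGAAG for PU.1 (13.6%), ACGTG for HIF (19.6%), AGATAA for GATA (11.2%) and GGGCGG for SP/KLF (35.7%). ACGTG lies within CACGTG, so every window with the second also held the first. The *Pls1* window held none of these letters, the *Pls3* window held 1 GGGCGG just after the start, and the *Lcp1* window held 4 GGGCGG and 1 ACGTG. The *Pls1* and *Lcp1* windows were GC rich, with 60.7% and 66.3% GC against a median of 52.7% over all windows, and with CpG at 0.582 and 0.613 of the number their base composition gives (median 0.384). Among the myosins, the first window of *Myo1c* held 1 GGGCGG, that of *Myo1f* held 1 TGTGGT and 1 GGGCGG, and those of *Myo1e* and *Myo1g* held none of the motifs.

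The libraries held between 3058690 and 4548795 counts, far fewer than the reads that the methods describe per sample, and the step at which the other reads were left out was not given in the sources used here. Before any comparison, the deleted gene was examined. *Cited2* was at 101 to 222 CPM (the count relative to the TMM-normalized total of its library) in *Cited2*CTL HSCs and at 3.80, 4.21, 5.00 and 8.30 CPM in CKO 1, CKO 2, CKO 4 and CKO 5, whereas the library labelled CKO 3 had 120.1 CPM (508 counts), within the *Cited2*CTL range. CKO 3 was kept in its labelled group, and the differences of the 8 genes are also given without it. With CKO 3 included, *Cited2* itself did not reach an adjusted p under 0.05 (log2 fold change -2.51, standard error 0.94, adjusted p = 0.328, edgeR). Without CKO 3 its log2 fold change was -4.92 (adjusted p = 1.82e-06, edgeR). Of the marker lists for the labelled cell type and for cells a gate could let through, all 10 HSC markers were expressed in both genotypes, with a summed level of 2480 to 2837 CPM in control and 2235 to 2507 CPM in *Cited2*CKO libraries (3 of 5 below the *Cited2*CTL range, no marker called). The list of 6 CD48+ multipotent progenitor markers summed to 614 to 708.5 CPM in control and 644 to 838 CPM in *Cited2*CKO libraries, of which 4, all except CKO 3, lay above the *Cited2*CTL range, with *Cd48* among the markers called higher. Granulocyte-monocyte progenitor markers summed to 138 to 442 and 123 to 279 CPM (3 of 5 *Cited2*CKO libraries below), and megakaryocyte and platelet markers to 529 to 647 and 522 to 659 CPM (1 above, 1 below). In the granulocyte-monocyte list, CTL 5 alone set the top of the control range, the next control being CTL 1 at 158 CPM. The highest *Cited2*CKO library of that list was CKO 5, with CKO 1 next at 157 CPM. The mature myeloid list (306 to 561 and 327 to 474 CPM, *Ly6g* without a count in any library), the B cell list (51.45 to 90.8 and 54.9 to 77.3 CPM), the T cell list (23.7 to 41.9 and 26.2 to 37.8 CPM) and the erythroid list (12.6 to 34.8 and 16.4 to 25.6 CPM, 6 of its 7 markers in the table) stayed within the *Cited2*CTL range. CTL 5 also held the highest control value of the mature myeloid, B cell and erythroid lists. The next controls were at 431 CPM (CTL 3), 68.5 CPM (CTL 2) and 29.6 CPM (CTL 2). CKO 4 and CKO 5 in the mature myeloid list (450 and 474 CPM) and CKO 3 in the B cell list (77.3 CPM) exceeded these next controls. The part of these cell types in the differences between genotypes was not tested, and in bulk RNA fewer cells of a type and less RNA per cell cannot be told apart.

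The genotypes differed in opposite directions for 1 plastin and 1 myosin. *Pls1* RNA was 2.79-fold higher and *Myo1d* RNA was 0.598 of the control level in *Cited2*CKO HSCs, and for both genes no *Cited2*CKO library overlapped a *Cited2*CTL library. The other plastins and the other 4 myosins did not pass the test. A gene was called at an adjusted p under 0.05 and a fold change above 20% in the quasi-likelihood F test of edgeR, adjusted by Benjamini-Hochberg over all 14165 tested genes. By this rule, 1 of the 8 genes was called higher, where 0.12% of all tested genes were, and 1 was called lower, where 0.106% were. Since the genes were chosen on this contrast, nothing is read from these shares. The log2 fold changes were above 0 for 4 of the 8 genes and below 0 for the other 4, with a median of -0.04 beside 0.01 over all tested genes.

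**Figure D1:**
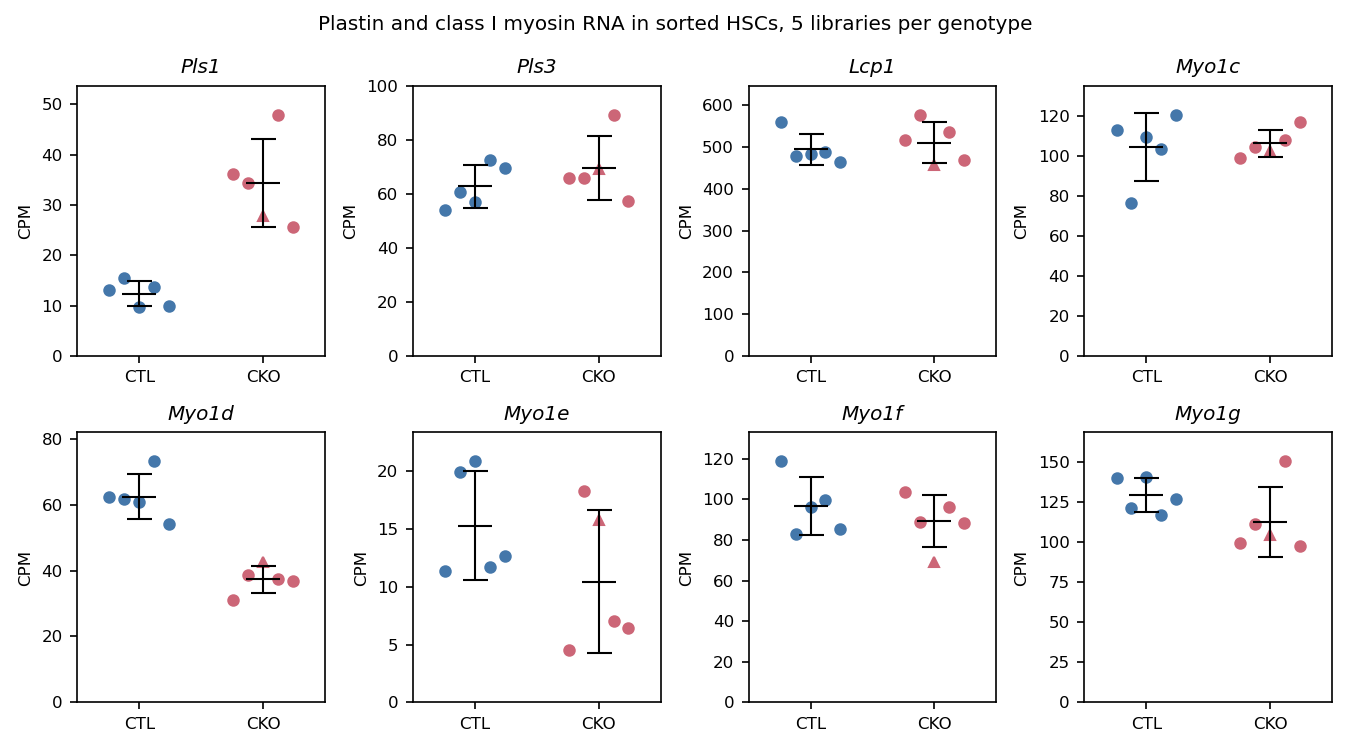
RNA of the 8 genes in CPM (y axis, from 0) in each *Cited2*CTL (blue) and *Cited2*CKO (red) library, with the mean and SD of 5 libraries in black and CKO 3 as a triangle. The groups are apart for *Pls1* (9.70 to 15.4 against 25.6 to 47.9 CPM) and *Myo1d* (54.0 to 73.1 against 31.1 to 42.5 CPM) and overlap for the other 6 genes.

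Of the plastins, *Pls1* was the one that moved. *Pls1* lies on chromosome 9 of GRCm38 from 95752642 to 95845311 on the minus strand. Its level was 13.04, 15.4, 9.70, 13.6 and 9.85 CPM in CTL 1 to CTL 5 and 36.1, 34.4, 27.9, 47.9 and 25.6 CPM in CKO 1 to CKO 5. Every *Cited2*CKO library was above every *Cited2*CTL library, and each stood at 2.07 to 3.89 times the *Cited2*CTL mean, the highest in CKO 4 and the lowest in CKO 5. The means were 12.3 ± 2.49 and 34.4 ± 8.75 CPM (SD, n = 5 per genotype), resting on 33 to 61 counts per *Cited2*CTL and 111 to 163 counts per *Cited2*CKO library. The log2 fold change was 1.48 (standard error 0.22, adjusted p = 0.0137, edgeR), and *Pls1* ranked 10 of the 14165 tested genes by p. CKO 3, in which *Cited2* RNA was retained, had *Pls1* at 2.26 times the *Cited2*CTL mean, and without that library the log2 fold change was 1.54 (adjusted p = 0.0102). The call was lost when an offset corrected each library for GC and length (log2 fold change 1.35, adjusted p = 0.0605) and when CKO 2 was left out (1.47, adjusted p = 0.0550).

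*Lcp1*, the leukocyte plastin, was the most abundant of the 8 genes and lies on chromosome 14 from 75131101 to 75230842 on the plus strand. It was measured at 559.8, 479, 482, 488 and 465 CPM in the *Cited2*CTL libraries and at 517, 577, 456, 535 and 468 CPM in the *Cited2*CKO libraries, in the order of their numbers. The ranges overlapped almost entirely, with CTL 1 set apart at the top of its group. Between genotypes the log2 fold change was 0.05 (standard error 0.08, adjusted p = 0.849, edgeR), 0.08 without CKO 3 and -0.02 with the GC and length offset, so its sign depended on the scaling. Antisense to *Lcp1*, the transcripts *Gm15628* and *Gm15629* overlap 3.27% and 2.30% of its exon bases, and the use of strand in counting was not given in the sources used here. The deposited counts were also read in relation to gene length. Among the 19827 genes of at least 1000 bases, the highest value was 1.72 counts per base and 21 genes were above 1 in any library. *Lcp1*, at 0.378 to 0.537 counts per base, lay above 98.3% of these genes, while *Pls1* lay at 0.00893 to 0.0441. Whether the counts have an upper limit per base, and whether it compressed the *Lcp1* values, was not tested.

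*Pls3*, the plastin of non-hematopoietic tissues, was readily detected. It lies on chromosome X from 75785654 to 75875182 on the minus strand. Its values were 54.2, 60.9, 57.0, 72.6 and 69.6 CPM in CTL 1 to CTL 5 and 66.1, 66.1, 69.3, 89.4 and 57.4 CPM in CKO 1 to CKO 5. CKO 4, which also held the highest *Pls1* value, alone exceeded the *Cited2*CTL range. The log2 fold change of *Pls3* was 0.14 (standard error 0.13, adjusted p = 0.702, edgeR) and was 0.14 without CKO 3, but 0.03 both without CKO 4 and with the GC and length offset.

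Composition of the plastin pool followed from these values. Per kilobase of gene length, *Pls1* made up 2.38, 3.15, 2.01, 2.69 and 2.05% of the summed plastin RNA in the *Cited2*CTL libraries and 6.60, 5.76, 5.67, 7.98 and 5.26% in the *Cited2*CKO libraries. *Pls1* thus remained the least abundant plastin in every library. *Lcp1* made up 84.0% ± 2.11 in control and 79.9% ± 2.59 in *Cited2*CKO HSCs (SD, n = 5 per genotype), and *Pls3* 13.6% ± 2.05 and 13.8% ± 1.76. The 3 genes summed to 136 ± 7.65 RPKM (CPM per kilobase of gene length) and 147 ± 14.8 RPKM, and the 2 groups overlapped.

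Of the short-tailed myosins, *Myo1d*, which encodes a motor known for its part in left-right asymmetry, was lower in *Cited2*CKO HSCs. *Myo1d* lies on chromosome 11 from 80482126 to 80780025 on the minus strand. It was found at 62.2, 61.6, 60.9, 73.1 and 54.0 CPM in CTL 1 to CTL 5 and at 31.1, 38.6, 42.5, 37.3 and 36.9 CPM in CKO 1 to CKO 5. No values overlapped, and CKO 3 was the *Cited2*CKO library nearest to the controls. The means were 62.4 ± 6.85 and 37.3 ± 4.10 CPM (SD, n = 5 per genotype), and counts ran from 127 to 300 per library. The log2 fold change was -0.74 (standard error 0.13, adjusted p = 0.0289, edgeR), rank 21 by p, and without CKO 3 it was -0.79 (adjusted p = 0.0222). The call was lost in 8 of the 10 fits that left out 1 library (adjusted p 0.0512 to 0.103, edgeR), all except those without CTL 5 or CKO 3. Log2 fold changes of *Myo1d* ran from -0.79 to -0.68 over the 10 fits. With the GC and length offset the log2 fold change was -0.67 (adjusted p = 0.173).

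*Myo1c* and *Myo1g* were the other short-tailed forms. *Myo1c*, a widely expressed motor that takes part in insulin-stimulated transport of glucose transporters, lies on chromosome 11 from 75650504 to 75673910 on the plus strand. It measured 113, 76.3, 109, 104 and 121 CPM in the *Cited2*CTL libraries and 99.1, 105, 102, 108 and 117 CPM in the *Cited2*CKO libraries. CTL 2 was low, and all *Cited2*CKO values fell inside the *Cited2*CTL range. Its log2 fold change was 0.02 (standard error 0.11, adjusted p = 0.953, edgeR), 0.04 without CKO 3, -0.07 without CTL 2, and 0.19 with the GC and length offset. *Myo1g*, a hematopoietic motor at the lymphocyte surface, lies on the same chromosome from 6506548 to 6520965 on the minus strand. Its level was 140.1, 121, 141, 117 and 127 CPM in CTL 1 to CTL 5 and 99.4, 111, 104, 150.2 and 97.7 CPM in CKO 1 to CKO 5. In 4 *Cited2*CKO libraries *Myo1g* was below every *Cited2*CTL library, while CKO 4 was above them all. Its log2 fold change was -0.20 (standard error 0.12, adjusted p = 0.508, edgeR) and -0.17 without CKO 3. Without CKO 4 it was -0.33 (standard error 0.09, adjusted p = 0.127).

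The long-tailed forms did not pass the test. *Myo1e*, a motor of endocytosis and of the kidney filtration barrier, lies on chromosome 9 from 70207350 to 70399766 on the plus strand. It was measured at 11.4, 19.95, 20.9, 11.7 and 12.7 CPM in CTL 1 to CTL 5 and at 4.52, 18.3, 15.8, 7.06 and 6.45 CPM in CKO 1 to CKO 5. CKO 1, CKO 4 and CKO 5 were below every control, whereas CKO 2 and CKO 3 were among them. The spread was the widest of the 8 genes, with a coefficient of variation of 30.6% in control and 59.4% in *Cited2*CKO HSCs, on 19 to 79 counts per library. For *Myo1e* the log2 fold change was -0.55 (standard error 0.39, adjusted p = 0.601, edgeR) and -0.76 without CKO 3, and it ranged from -0.85 (without CKO 2) to -0.36 (without CKO 1) over the fits without 1 library. *Myo1f*, a leukocyte motor that takes part in neutrophil migration, lies on chromosome 17 from 33555707 to 33607764 on the plus strand. It measured 119, 82.85, 96.1, 99.7 and 85.6 CPM in the *Cited2*CTL libraries and 104, 88.8, 69.3, 96.4 and 88.5 CPM in the *Cited2*CKO libraries. CKO 3 was the lowest library and the groups otherwise overlapped. Its log2 fold change was -0.11 (standard error 0.13, adjusted p = 0.760, edgeR), -0.03 without CKO 3, -0.17 without CKO 1 and 0.03 with the GC and length offset.

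**Figure D2:**
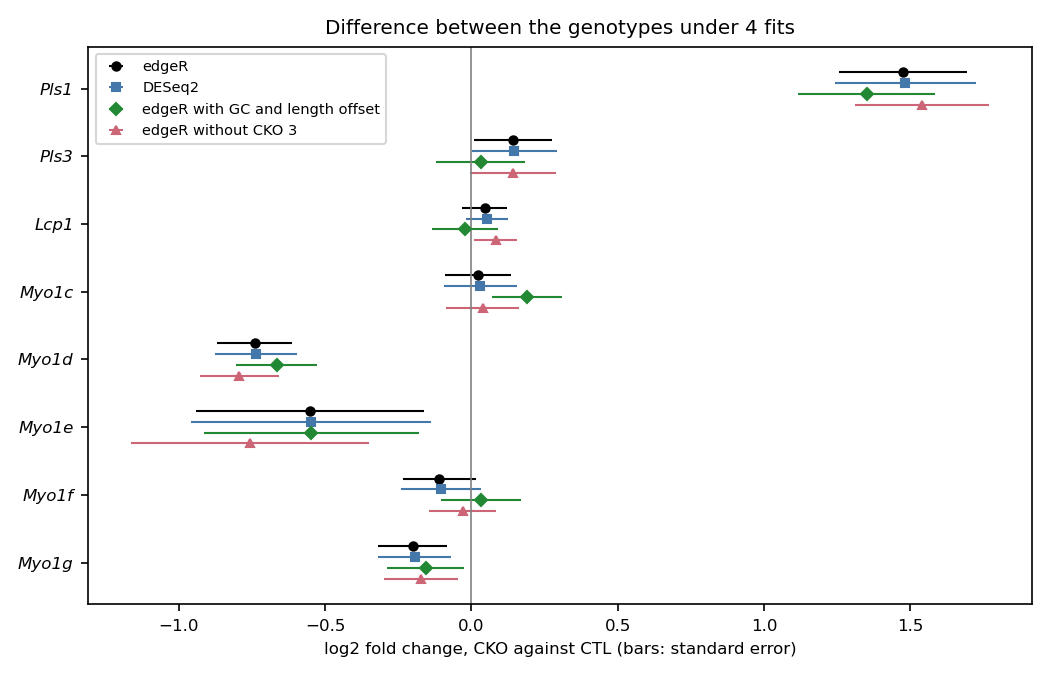
Log2 fold change of *Cited2*CKO against *Cited2*CTL (x axis) with its standard error for each of the 8 genes under 4 fits. *Pls1* lies between 1.35 and 1.54 and *Myo1d* between -0.79 and -0.67, and *Lcp1* and *Myo1f* change sign with the GC and length offset.

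The calls were also read under other rules. The Wald test in DESeq2, the test of the study, called *Pls1* (log2 fold change 1.48, adjusted p = 8.38e-07) and *Myo1d* (-0.74, adjusted p = 7.47e-05) and none of the other 6, where 1.15% of the 12789 genes with an adjusted p were called higher and 1.37% lower. edgeR with the GC and length offset called 0 of the 8 genes, where 0.0353% of tested genes were called higher and 0.0212% lower. At an unadjusted p under 0.05 in edgeR without the offset, 1 gene was higher (*Pls1*, background 5.8%) and 1 lower (*Myo1d*, background 7.08%). By CPM without overlap between genotypes, 1 was higher, where 1.35% of tested genes were, and 1 was lower, where 1.98% were. The GC content of the longest transcript was 42.7% for *Pls1* and 52.9% for *Myo1d*, against medians of 51.0% over the 8 genes and 48.8% over all tested genes, and its part in the 2 differences was not tested beyond the offset.

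The 8 genes spanned a wide range of abundance in *Cited2*CTL HSCs. Levels between genes were compared only per kilobase, in RPKM computed from the deposited counts and gene lengths. *Lcp1* was at 114 ± 8.61 RPKM (SD, n = 5), above 96.2% of tested genes. *Myo1g* followed at 39.1 ± 3.27, *Myo1f* at 25.2 ± 3.71, *Myo1c* at 18.5 ± 3.00, *Pls3* at 18.4 ± 2.33 and *Myo1d* at 11.7 ± 1.28 RPKM. *Pls1* at 3.335 ± 0.67 and *Myo1e* at 3.10 ± 0.95 RPKM were the lowest, above 21.2% and 20.2% of tested genes. Neighbours in this order had separate ranges except *Myo1c* with *Pls3* and *Pls1* with *Myo1e*, which did not differ beyond their spread.

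In *Cited2*CKO HSCs, *Pls1* and *Myo1d* exchanged places near the bottom of the order. The means were 118 RPKM for *Lcp1*, 34.0 for *Myo1g*, 23.3 for *Myo1f*, 20.4 for *Pls3*, 18.8 for *Myo1c*, 9.30 for *Pls1*, 6.97 for *Myo1d* and 2.11 RPKM for *Myo1e*. The ranges of *Pls1* and *Myo1d* overlapped, as did those of *Myo1f* with *Pls3* and of *Pls3* with *Myo1c*. *Pls1* was higher than *Myo1d* per kilobase in 4 of 5 *Cited2*CKO libraries and in none of the 5 *Cited2*CTL libraries. The ratio of *Pls1* to *Myo1d* per kilobase was 0.304, 0.362, 0.231, 0.270 and 0.264 in CTL 1 to CTL 5 and 1.68, 1.29, 0.949, 1.86 and 1.00 in CKO 1 to CKO 5. CKO 3 was the library below 1. *Myo1d* made up 12.01% ± 1.62 of the summed RPKM of the 5 myosins in control and 8.23% ± 1.22 in *Cited2*CKO HSCs (SD, n = 5 per genotype), with no library in common between the ranges of 10.7 to 14.3% and 7.11 to 10.1%. The 5 myosins summed to 97.5 ± 7.66 and 85.2 ± 7.69 RPKM, with overlapping groups.

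**Figure D3:**
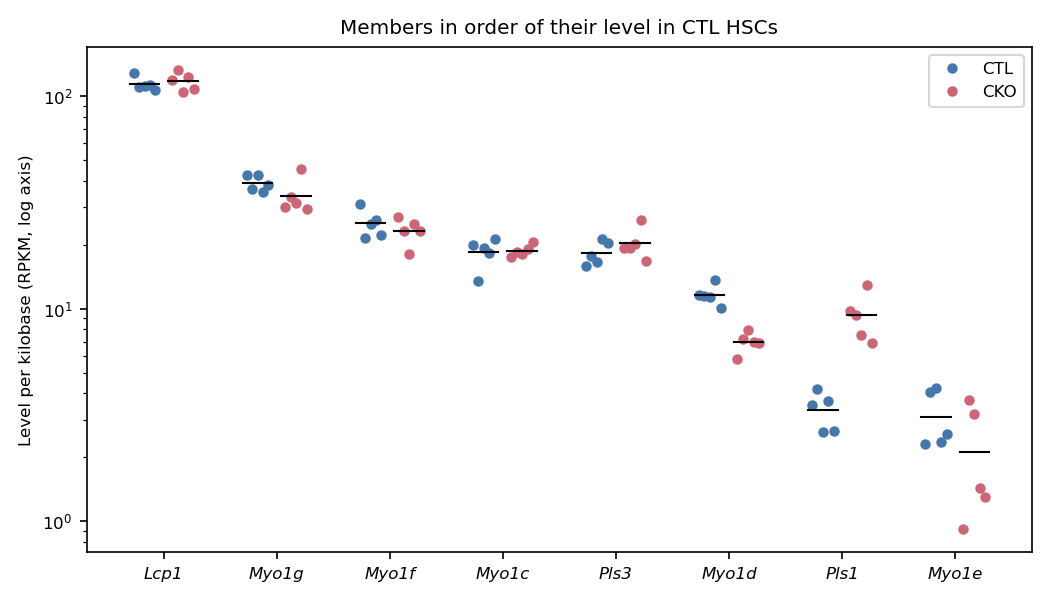
Level per kilobase in RPKM (log axis) of the 8 genes in each library, ordered by their mean in *Cited2*CTL HSCs, with black lines at the group means. *Lcp1* leads at 114 RPKM, and *Pls1* passes from beside *Myo1e* in *Cited2*CTL (blue) to beside *Myo1d* in *Cited2*CKO HSCs (red).

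**Figure D4:**
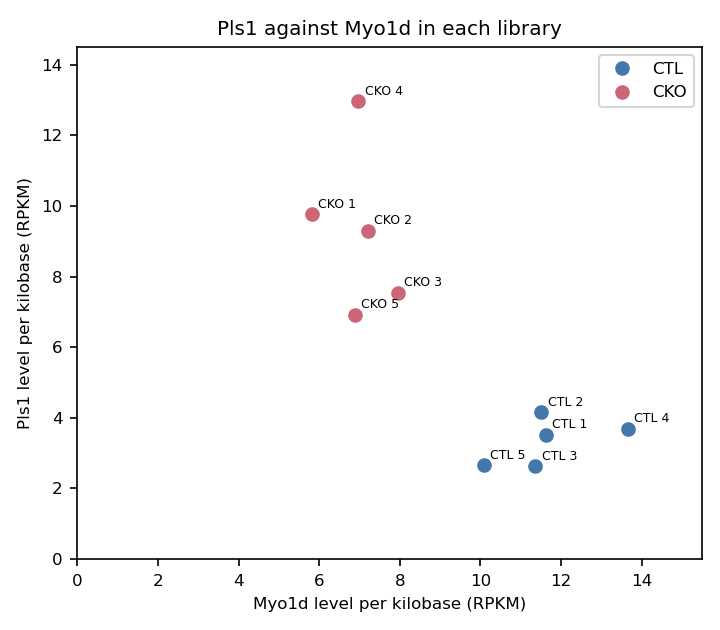
*Pls1* (y axis) against *Myo1d* (x axis), both in RPKM, in each *Cited2*CTL (blue) and *Cited2*CKO (red) library. The 2 genotypes do not overlap on either axis. With the genotype means removed, r of log2 CPM pooled over the 10 libraries was 0.08, which does not describe the slope within either genotype alone.

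Variation among the libraries of a genotype did not tie the 8 genes together. With the genotype mean removed, the correlations of log2 CPM over the 10 libraries were above 0 for 15 of 28 pairs, with a median of 0.05 and a range from -0.63 (*Myo1e* with *Myo1f*) to 0.71 (*Lcp1* with *Myo1f*). *Pls1* and *Myo1d* had r = -0.86 over the 10 libraries and 0.08 with the genotype mean removed. *Pls1* had 0.54 with *Lcp1* and 0.53 with *Pls3*. These points share library depth and normalization, and the correlations are given as a description. With the log2 total count of the library, genotype mean removed, r was -0.72 for *Myo1g*, -0.60 for *Lcp1*, -0.59 for *Myo1f* and -0.35 for *Pls1*, and between -0.10 and 0.14 for the other 4 genes. CTL 1, the library with the highest *Lcp1* value among controls, and CKO 4, that with the highest *Myo1g* value, had the fewest counts of their groups (3058690 and 3500215).

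The genes whose pattern was most like that of *Pls1* were sought among 14105 genes by Pearson r over the 10 libraries. After the genotype mean was removed, these were *Tnfrsf13b* (0.96), *Zfp958* (0.96), *Arhgap1* (0.95), *Rab2b* (0.95) and *Gsn* (0.95), none of which was called between the genotypes in edgeR, though DESeq2 called *Gsn* lower. Without that removal they were *P2ry1* (0.95), *Sva* (0.94) and *F2r* (0.93). *P2ry1*, an ADP receptor, was at 41.0 ± 8.15 CPM in controls and 86.8 ± 7.02 CPM in the 5 libraries labelled CKO (log2 fold change 1.08, adjusted p = 0.00558, edgeR), and *F2r*, the thrombin receptor, at 227 ± 22.7 and 313 ± 49.4 CPM (log2 fold change 0.46, adjusted p = 0.0904). Each is the highest of many correlations over few libraries. Without removal of the genotype mean, r also carries the genotype difference on which *Pls1* was chosen. Genes higher in *Cited2*CKO libraries therefore rank high by the way they were sought, and the differences of *P2ry1* and *F2r* give no independent support.

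Further class I myosins were also examined. *Myo1a*, the brush border myosin, had 0 to 13 counts per library and was not tested. *Myo1h* was at 95.1 ± 6.08 and 98.6 ± 8.996 CPM (SD, n = 5 per genotype; log2 fold change 0.05, adjusted p = 0.859), but 25.8% of its exon bases overlap *Kctd10* on the other strand, so its reads could not be told apart from those of that gene without strand.

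Further actin genes were read from 5 lists of 134 genes, of which 116 were tested. Of these, 1 was called higher and 0 lower in edgeR, 6 were higher and 12 lower at an unadjusted p under 0.05, and 1 was called higher and 2 lower in DESeq2. Their median log2 fold change was 0.00, beside 0.01 over all tested genes. By CPM without overlap between genotypes, 3 listed genes were higher and 4 lower, where 1.35% and 1.98% of all tested genes were. Over all tested genes, 5.8% were higher and 7.08% lower at an unadjusted p under 0.05. DESeq2 called 1.15% higher and 1.37% lower of the genes with an adjusted p, and edgeR 0.12% and 0.106% of tested genes. The same shares apply beside the counts of each list below. The called gene was *Tpm4*, a tropomyosin that coats non-muscle actin filaments, at 28.1, 46.5, 49.4, 56.5 and 65.2 CPM in CTL 1 to CTL 5 and 136, 132, 69.3, 131 and 117 CPM in CKO 1 to CKO 5. All *Cited2*CKO libraries were above the controls, with CKO 3 closest to them. The log2 fold change of *Tpm4* was 1.24 (standard error 0.21, adjusted p = 0.0289, edgeR), and 1.38 without CKO 3 (adjusted p = 0.00425). The call of *Tpm4* was lost in 8 of the 10 fits without 1 library (adjusted p 0.0509 to 0.105, edgeR), all except those without CTL 5 or CKO 3. It was also lost with the GC and length offset (adjusted p = 0.101, edgeR).

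Among other bundling and crosslinking proteins, 23 of 30 genes were tested and none was called in edgeR, with 1 higher and 6 lower at an unadjusted p under 0.05 and 1 lower in DESeq2. *Eps8l2*, whose product caps and bundles actin in hair cell stereocilia, was at 18.6 ± 3.19 CPM in controls and 7.52 ± 2.23 CPM in *Cited2*CKO HSCs without overlap (SD, n = 5 per genotype; log2 fold change -1.31, adjusted p = 0.0741 in edgeR and 0.00102 in DESeq2). With the GC and length offset in edgeR, the log2 fold change of *Eps8l2* was -1.09 (adjusted p = 0.278). *Marcks*, a crosslinker under the plasma membrane, was at 29.9 ± 8.85 and 50.2 ± 12.05 CPM (log2 fold change 0.74, adjusted p = 0.194, edgeR). Smaller differences that did not pass the test were measured for *Baiap2* (-0.51) and *Eps8* (0.17). The median log2 fold change of the list was -0.06.

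Of the other myosins and light chains, 23 of 30 were tested and none was called in edgeR or DESeq2, with 0 higher and 1 lower at an unadjusted p under 0.05 and a median log2 fold change of -0.07. That gene was *Myo9b*, a motor with a RhoGAP domain, at 83.5 ± 18.9 and 56.4 ± 17.7 CPM (SD, n = 5 per genotype; log2 fold change -0.57, adjusted p = 0.273, edgeR). *Myo3a* (0.85), *Myo9a* (0.26) and *Myo18a* (-0.20) had larger p-values. In the list for actin and its assembly and turnover, 56 of 58 were tested, 1 was called higher (*Tpm4*) and none lower, and at an unadjusted p under 0.05 there were 3 higher and 3 lower (median 0.01). *Gsn*, the severing protein gelsolin, was at 66.7 ± 7.22 CPM in controls and 45.5 ± 4.11 CPM in *Cited2*CKO HSCs without overlap (log2 fold change -0.55, adjusted p = 0.0753 in edgeR, 0.00296 in DESeq2 and 0.592 with the GC and length offset in edgeR). *Capza2*, a capping protein subunit, and *Coro1b*, a coronin, had log2 fold changes of 0.15 and -0.21 (adjusted p = 0.330 and 0.257, edgeR). With the GC and length offset, these log2 fold changes were -0.0002 and -0.0041.

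Linkers of membrane and cortex showed no called gene among 12 tested of 13 in edgeR or DESeq2, with 1 higher and 2 lower at an unadjusted p under 0.05 and a median log2 fold change of 0.06. *Ezr*, which encodes ezrin, was at 128 ± 9.91 CPM in controls and 102 ± 14.0 CPM in *Cited2*CKO HSCs without overlap (SD, n = 5 per genotype; log2 fold change -0.33, adjusted p = 0.207, edgeR). *Anxa2* (0.29), *Cd44* (0.17) and *Tln1* (-0.20) did not pass the test either. With the GC and length offset, edgeR called 0 genes of the 5 lists in either direction. Without CKO 3, 1 listed gene was called higher and 0 lower.

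**Figure D5:**
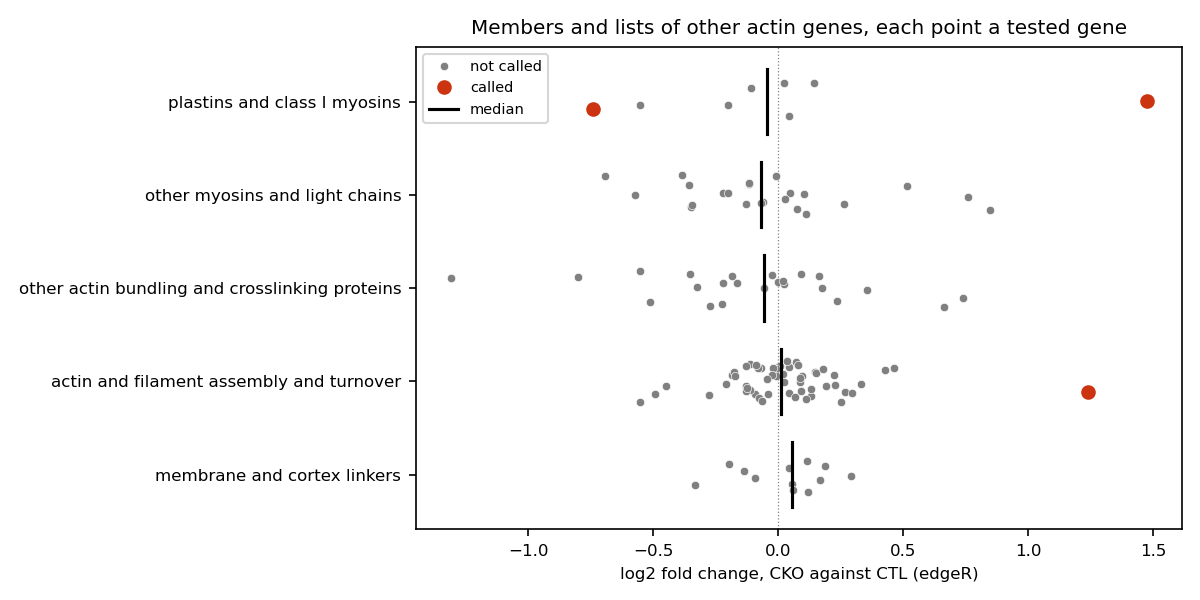
Log2 fold change of *Cited2*CKO against *Cited2*CTL (x axis, edgeR) for the 8 plastins and class I myosins and for each tested gene of 4 lists of other actin genes, with medians as black bars. Called genes (red) are *Pls1*, *Myo1d* and *Tpm4*, and the medians of the 4 lists lie from -0.07 to 0.06.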

How the data were processed

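RNA-seq was from 10 libraries of sorted HSCs, 1 mouse each, grouped by genotype from the labels. Per the paper's methods, HISAT2 was used by the authors for alignment of the single-end reads to GRCm38 and Rsubread for counting. They deposited raw counts per gene, not normalized, and a gene length in bases. The annotation and the handling of strand, multiply mapped and duplicate reads were not given in the sources used here. No value column was left unmapped (0).

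Differential expression was tested by edgeR 4.0.16 under R 4.3.3 (filterByExpr, TMM, robust quasi-likelihood F test, Benjamini-Hochberg adjustment over 14165 genes, adjusted p under 0.05 and fold change above 20%). CPM and RPKM use TMM-normalized totals, and log2 CPM a prior count of 2. The common biological coefficient of variation was 25.3%. Alternatives were DESeq2 1.42.0 (Wald test), its size factors, other filters, limma-voom (limma 3.58.1), the replicate block, an offset for GC content and length fitted per library (loess, span 50%), which may take out genotype effects that follow either property, each library left out, and other thresholds. On simulated data with *Cited2*CKO against *Cited2*CTL libraries, edgeR recovered 143 of 184 changed genes among 13614 tested, with 9 false calls, and DESeq2 153 with 29. Every changed gene was given a log2 fold change of the same size, up or down, larger than that of *Myo1d*. No GC or length trend was simulated, and recovery of smaller differences was not tested.

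Members and lists were chosen with earlier results of these data known. Named genes were the 8 members, *Cited2*, the called and lowest-p genes of each list (2 per direction), the 5 and 3 genes most correlated with *Pls1*, and, of the cell type markers, lists that left the *Cited2*CTL range. Overlaps and GC content came from GENCODE, promoters from RefSeq. Some genes of the lists, which count in their numbers, are not reported here.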

Additional observations from a re-analysis of the deposited data

Results flagged for a closer look

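Of 18 groups of 5 libraries (the 8 genes and *Cited2* in each genotype), 3 held a library far from the rest by Dixon's test at its 95% level, where chance gives about 1 in 20 groups. *Lcp1* was at 559.8 CPM in CTL 1, the highest control, with a gap to the next library of 0.753 of the group's range (critical value 0.71). *Myo1g* was at 150.2 CPM in CKO 4, with a gap of 0.741 of the range. *Cited2* was at 120.1 CPM in the library labelled CKO 3, with a gap of 0.961 of the range.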

How the results depend on the processing

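Counts over all tested genes moved with the processing, from 17 higher and 15 lower in the edgeR fit to 147 and 175 in DESeq2, 5 and 3 with the GC and length offset, 9 and 3 with the offset and the replicate block, and 5 and 3 at an adjusted p under 0.01. Leaving out 1 library gave 5 (without CKO 2) to 27 (without CKO 3) higher and 3 (without CTL 2, CTL 4 or CKO 2) to 18 (without CKO 4) lower. The replicate numbers did not pair the libraries (correlations of same-numbered libraries from -0.09 to 0.21), and the replicate block alone left 9 genes called lower. Of the 8 members, 1 was called higher and 1 lower. With the replicate block 0 were called lower. With the offset, with the offset and the block, and at an adjusted p under 0.01, 0 were called in either direction. Leaving out 1 library gave 0 to 1 in each direction. The sign of *Lcp1* turned with the offset (-0.021) and with the offset and the block (-0.022), and ranged from -0.0051 to 0.086 over the fits without 1 library. *Myo1f* turned to 0.034 under both offset fits, and *Myo1c* ranged from -0.075 to 0.079 without 1 library. *Pls1* (1.32 to 1.57) and *Myo1d* (-0.79 to -0.68) kept their direction in those fits. The order of levels kept 4 to 8 of its 8 places when a control was left out. Without division by length, *Pls3* made up 11.1% of plastin counts in *Cited2*CTL and 11.3% in *Cited2*CKO, and *Lcp1* 86.8% and 83.1%. The cause of these shifts was not tested. Depth limits *Pls1* and *Myo1e* most, with as few as 33 and 19 counts in a library.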
